A study of Homo sapiens with 12 samples.

Results

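Chemokines are small secreted proteins that steer the movement of leukocytes, and 10 of their genes were followed here in SW1783 cells, an established human astrocytoma line, after treatment with Aconitum carmichaeli Debeaux (ACD) extracted in water. The genes were CXCL1, CXCL2, CXCL3, CXCL5, CXCL6, CXCL8, CXCL12, CCL2, CCL7 and CCL20, chosen by name as ligands known to attract neutrophils, monocytes or other leukocytes. They are 10 of the 60675 Ensembl gene IDs in the count table, of which 30808 had a count in at least 1 library. RNA from whole cultures was sequenced in 12 libraries, 3 in each of 4 groups. Control cells received PBS containing 2% DMSO as the vehicle, and dosed cells received ACD for 24 h at 20 µg/mL (low dose), 100 µg/mL (medium dose) or 500 µg/mL (high dose). Whether the lower doses were diluted in that same vehicle is not stated. The treatment protocol attached to the samples describes another herb, Poria cocos, so the identity of the extract rests on the titles and treatment labels of the samples and on the study's methods, which all name ACD. All libraries came from a single line, and nothing in the labels says that those of a group came from separate cultures, so the p-values measure the spread between these libraries, which may be technical.

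The members fall into families by the spacing of their first cysteines. CXC chemokines that carry the residues glutamate, leucine and arginine just before the first cysteine (the ELR motif) bind CXCR2, and CXCL6 and CXCL8 also bind CXCR1, receptors that draw neutrophils into tissue. CXCL12 lacks the motif and acts through CXCR4 and ACKR3, while the CC chemokines CCL2 and CCL7 call monocytes through CCR2, and CCL20 acts on lymphocytes and dendritic cells through CCR6. Astrocytes and astrocytoma cells are known sources of CXCL8, CCL2 and CXCL12, and transcription of many of these genes is known to be induced by NF-kB after interleukin 1 or tumour necrosis factor.

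The coding stretch around the first cysteine shows the family division in the reference genome. It is printed here 5′ to 3′ along each gene from GRCh38, with the 3 codons before the first cysteine in capitals and the codons of the cysteines in lower case. CXCL1 and CXCL2 have identical letters here, and CXCL12 and the CC genes encode other residues in place of ELR.
CXCL1 (chr4:73869680-73869703, plus strand): gccactGAACTGCGCtgccagtgc
CXCL2 (chr4:74098888-74098911, minus strand): gccactGAACTGCGCtgccagtgc
CXCL3 (chr4:74038379-74038402, minus strand): gtcactGAACTGCGCtgccagtgc
CXCL5 (chr4:73998295-73998318, minus strand): ttgagaGAGCTGCGTtgcgtttgt
CXCL6 (chr4:73836984-73837007, plus strand): ctgacaGAGCTGCGTtgcacttgt
CXCL8 (chr4:73741562-73741585, plus strand): gctaaaGAACTTAGAtgtcagtgc
CXCL12 (chr10:44380846-44380869, minus strand): agcctgAGCTACAGAtgcccatgc
CCL2 (chr17:34256230-34256250, plus strand): aatgccCCAGTCACCtgctgt
CCL7 (chr17:34271154-34271174, plus strand): aatactTCAACTACCtgctgc
CCL20 (chr2:227815456-227815476, plus strand): gcaagcAACTTTGACtgctgt
All 6 ELR genes lie in a cluster on chromosome 4, and CCL2 and CCL7 lie side by side on chromosome 17. Over their coding bases CXCL1 and CXCL2 were 93.5% identical, CXCL2 and CXCL3 94.4%, CXCL1 and CXCL3 90.7%, CXCL5 and CXCL6 87.4%, and CCL2 and CCL7 79.1%. Of the 31-base words in the canonical transcripts of CXCL1, CXCL2 and CXCL3, 15%, 21.7% and 9.57% also occurred in another gene, but 0% of their 100-base words did. Whether reads were divided among these 3 genes was not measured, and their sum is given beside the single values.

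In vehicle-treated cells the ELR genes other than CXCL8 were weakly expressed, and CCL2 and CXCL12 led. Levels between genes were compared as normalised counts per kilobase of canonical transcript. CCL2 was highest at 645 (591 to 690 over 3 libraries), followed by CXCL12 at 190 (178 to 198) and CXCL8 at 61.4 (55.5 to 65.3), and these 3 ranges did not overlap. CXCL5 at 6.23, CXCL2 at 5.67, CXCL3 at 5.61, CCL7 at 3.5 and CXCL1 at 3.29 per kilobase followed, and neighbours among these 5 overlapped. CCL20 at 1.59 and CXCL6 at 0.864 had the lowest means, and both overlapped each other and CCL7.

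At the high dose the order was different. CXCL8 became the highest at 1320 per kilobase (1232 to 1390), above CCL2 at 279 (263 to 300), CXCL2 at 215 (196 to 228) and CXCL3 at 213 (207 to 222). CXCL2 and CXCL3 overlapped. CXCL1 followed at 46.4, above CXCL12 at 39.7 and CXCL5 at 38.9, which overlapped, then CCL20 at 5.7, CXCL6 at 0.601 and CCL7 at 0. Part of this order depended on the length used. Per kilobase of all annotated exons, CXCL8 was still first at 838, but CXCL2 at 171 came before CCL2 at 107, and CXCL12 at 12.5 came after CXCL5 at 38.9.

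**Figure D1:**
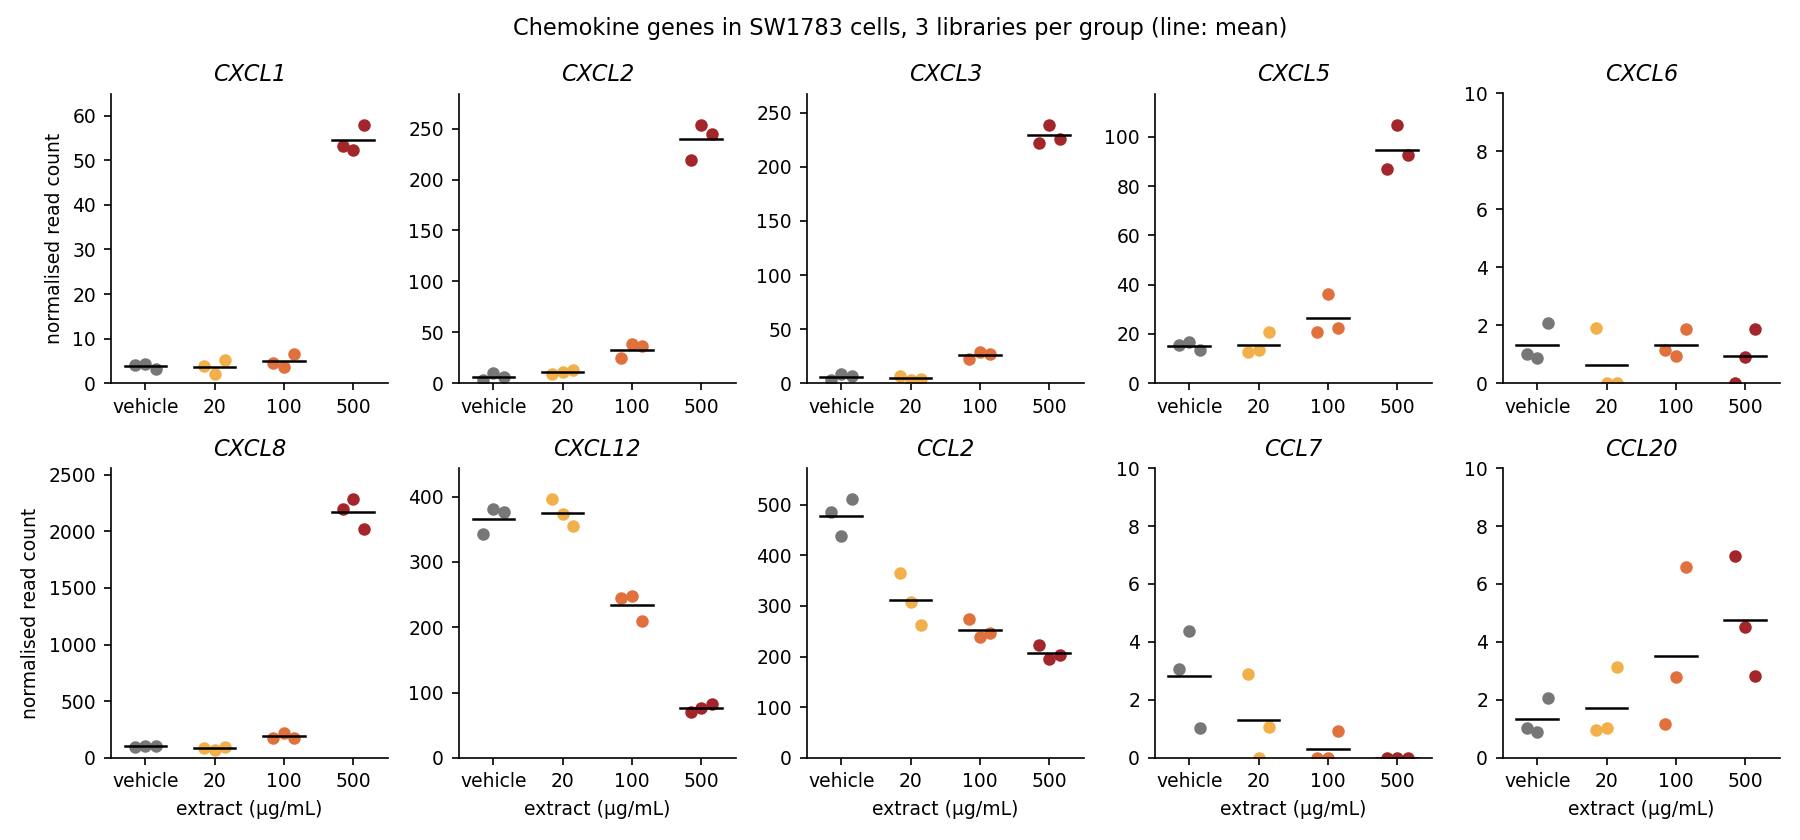
Normalised counts of the 10 chemokine genes in each of the 12 libraries, 1 panel per gene, by group (vehicle and ACD at 20, 100 and 500 µg/mL), on linear axes that start at 0 and differ in scale. Each point is a library and each line a group mean: CXCL1, CXCL2, CXCL3, CXCL5 and CXCL8 climb at the high dose, CXCL12 and CCL2 descend, and CXCL6, CCL7 and CCL20 stay close to 0 counts in all groups.

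At the high dose 7 of the 10 genes were differentially expressed genes (DEGs) against vehicle, with 5 upregulated and 2 downregulated. To count as a DEG, a gene needed p under 0.05 in the two-sided Wald test of DESeq2 after Benjamini-Hochberg adjustment, and a change of more than 1.5-fold. The log2 ratio given with each gene is the log2 fold change of that fit, with its standard error (SE). Of all 19453 genes tested in this comparison 18.2% were DEGs, 8.66% upregulated and 9.57% downregulated. The 5 upregulated genes were CXCL1, CXCL2, CXCL3, CXCL5 and CXCL8, and the 2 downregulated genes were CXCL12 and CCL2. CCL20 was tested without being called, and CXCL6 and CCL7 were too low to receive an adjusted p. Over all genes tested the median log2 ratio was −0.01. In a bulk sample, fewer cells of a type and less RNA per cell cannot be told apart.

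CXCL8 encodes interleukin 8, a principal attractant of neutrophils. Its normalised counts were 91.2, 104 and 107 in the vehicle libraries, 89.5, 66.3 and 100 in low dose libraries, 177, 219 and 177 in medium dose libraries, and 2200, 2283 and 2022 in high dose libraries. The vehicle and low dose libraries overlapped, while all medium dose libraries lay above them and all high dose libraries far above those. The group means were 101 ± 8.52, 85.4 ± 17.4, 191 ± 24.1 and 2168 ± 133 (SD, n = 3). CXCL8 rose 21.5-fold at the high dose (log2 ratio 4.42, SE 0.113), with an adjusted p in DESeq2 too small for the software to represent.

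CXCL2 and CXCL3 encode neutrophil attractants of the GRO group and started from very few reads. CXCL2 had normalised counts of 3.07, 9.64 and 6.24 in vehicle, 8.66, 11.2 and 12.6 in low dose libraries, 24.3, 38.2 and 36.7 in medium dose libraries, and 219, 254 and 245 in high dose libraries. CXCL3 had 3.07, 8.76 and 6.24 in vehicle, 6.73, 3.06 and 4.19 in low dose libraries, 22, 28.9 and 27.3 in medium dose libraries, and 222, 239 and 226 in high dose libraries. For both genes the vehicle and low dose libraries overlapped, and the medium and high dose libraries formed separate, higher ranges. CXCL2 rose 37-fold at the high dose (log2 ratio 5.21, SE 0.374, adjusted p = 8.03e-43 by DESeq2). CXCL3 rose 37.3-fold (log2 ratio 5.22, SE 0.38, adjusted p = 1.62e-41 by DESeq2). The 95% intervals of these log2 fold changes, 4.48 to 5.94 and 4.47 to 5.96, were wide, and the vehicle libraries held only 3 to 11 reads of each gene.

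CXCL1, the founding member of the GRO group, remained the lowest of the 3. Its normalised counts were 4.1, 4.38 and 3.12 in vehicle, 3.85, 2.04 and 5.23 in low dose libraries, 4.64, 3.73 and 6.6 in medium dose libraries, and 53.3, 52.3 and 58 in high dose libraries. Only the high dose libraries stood apart from the other 9. CXCL1 rose 14-fold there (log2 ratio 3.81, SE 0.548, adjusted p = 2.36e-11 by DESeq2). With the counts of CXCL1, CXCL2 and CXCL3 summed, the log2 ratio was 4.99 (SE 0.242, adjusted p = 6.27e-93 by DESeq2). Of that sum CXCL1 supplied 9.59% to 11% in the high dose libraries, CXCL2 44.3% to 46.6% and CXCL3 42.8% to 45%.

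CXCL5, also known as ENA-78, had normalised counts of 15.4, 16.6 and 13.5 in vehicle, 12.5, 13.3 and 20.9 in low dose libraries, 20.9, 36.3 and 22.6 in medium dose libraries, and 86.8, 105 and 92.6 in high dose libraries. The high dose libraries lay above all others, and the medium dose libraries lay above the vehicle libraries but met the low dose ones at 20.9. CXCL5 rose 6.22-fold at the high dose (log2 ratio 2.64, SE 0.33, adjusted p = 1.05e-14 by DESeq2). An unnamed gene on the opposite strand overlaps 17.3% of its exon bases, and whether the counting used strand is not stated. CXCL6, its close copy, had 0 to 2 reads in every library, so a change in CXCL6 was not detectable at this depth. Summing CXCL5 and CXCL6 gave a log2 ratio of 2.53 (SE 0.318, adjusted p = 1.36e-14 by DESeq2).

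CXCL12, which guides stem cells, lymphocytes and neural precursors through CXCR4, was lower at the medium and high doses. Its normalised counts were 342, 381 and 376 in vehicle, 396, 374 and 355 in low dose libraries, 245, 248 and 210 in medium dose libraries, and 70.6, 76.6 and 82.3 in high dose libraries. Vehicle and low dose libraries shared a range, and the medium and high dose libraries lay below it without overlapping each other. CXCL12 was 4.77-fold lower at the high dose than in vehicle (log2 ratio −2.26, SE 0.137, adjusted p = 2.46e-59 by DESeq2).

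CCL2, also known as MCP-1 and a principal attractant of monocytes, was the only member called at every dose. Its normalised counts were 486, 438 and 511 in vehicle, 365, 308 and 263 in low dose libraries, 274, 239 and 247 in medium dose libraries, and 222, 195 and 203 in high dose libraries. All 9 dosed libraries lay below all 3 vehicle libraries, and the low and medium dose libraries overlapped. CCL2 was 2.32-fold lower at the high dose (log2 ratio −1.21, SE 0.122, adjusted p = 3.12e-22 by DESeq2).

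CCL7, or MCP-3, had 3, 5 and 1 reads in the vehicle libraries, 3, 0 and 1 at the low dose, 0, 0 and 1 at the medium dose, and 0 in all 3 high dose libraries. These counts were too low for an adjusted p in DESeq2. The quasi-likelihood test of edgeR gave CCL7 an adjusted p of 0.0159 at the high dose, and no fold is given, since a count of 0 allows up to 3 reads in a library. CCL20, the ligand of CCR6, had 1, 1 and 2 reads in vehicle and 6, 5 and 3 at the high dose, with 1 to 7 in the libraries between. In the high dose group its log2 ratio was 1.84 (SE 1.16, adjusted p = 0.194 by DESeq2), with a 95% interval of −0.42 to 4.11.

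**Figure D2:**
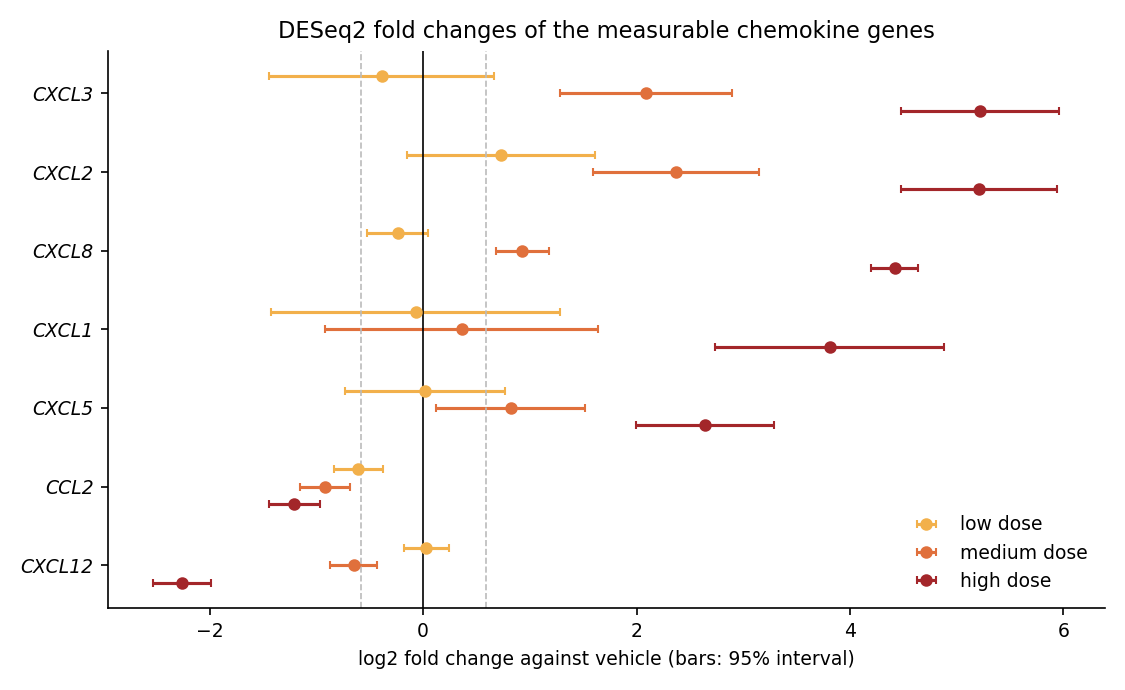
Log2 fold changes of 7 chemokine genes against vehicle in each dose group, as points with 95% confidence intervals of the DESeq2 fit as bars and dashed lines at a change of 1.5-fold. At the high dose CXCL3 (5.22), CXCL2 (5.21) and CXCL8 (4.42) lie far to the positive side and CXCL12 (−2.26) and CCL2 (−1.21) to the negative side, while at the low dose only the interval of CCL2 (−0.61) belongs to a called gene.

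At the medium dose 5 members were DEGs against vehicle, where 3.81% of the 14082 genes tested were DEGs. The 3 upregulated members stood against 2.34% of genes upregulated, and the 2 downregulated members against 1.48% downregulated. CXCL2 rose by 2.37 on the log2 scale (SE 0.397, adjusted p = 4.1e-08 by DESeq2). CXCL3 rose by 2.09 (SE 0.41, adjusted p = 4.01e-06 by DESeq2) and CXCL8 by 0.93 (SE 0.127, adjusted p = 9.8e-12 by DESeq2). The filter of this comparison, at a mean of 18.3 normalised counts, was taken over all 12 libraries. CXCL2 and CXCL3 passed it through the high dose libraries, where their means were 239 and 229. Without independent filtering 5 members were still called, but CXCL3 received no adjusted p with only vehicle and medium dose fitted. CXCL12 had a log2 ratio of −0.65 (SE 0.113, adjusted p = 1.63e-07 by DESeq2), and CCL2 of −0.92 (SE 0.12, adjusted p = 4.45e-13 by DESeq2). The call of CXCL12 rested on medium dose replicate 3, without which the log2 ratio was −0.57 and the fold fell under 1.5. CXCL5 was at 0.82 (SE 0.357, adjusted p = 0.0695 by DESeq2) and was called by edgeR (adjusted p = 0.0139), so its call at this dose depended on the tool. CXCL1 had a log2 ratio of 0.36 with a 95% interval of −0.92 to 1.64, too low in counts for an adjusted p.

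At the low dose CCL2 was the only member called, against 0.118% of the 9304 genes tested. Its log2 ratio was −0.61 (SE 0.117, adjusted p = 2.71e-05 by DESeq2), which is 1.53-fold lower and close to the fold limit. Without vehicle replicate 3 the log2 ratio was −0.56, and without low dose replicate 3 it was −0.51, both inside the limit. CCL2 received no adjusted p, and so no call, without any one of vehicle replicate 3, low dose replicates 1, 2 and 3, medium dose replicates 2 and 3, and high dose replicate 3. CXCL8 was at −0.24 (SE 0.144, adjusted p = 0.459 by DESeq2), and the other 8 members received no adjusted p because their means lay below the 263 normalised counts at which the tool cut this comparison. The 95% interval for CXCL12, −0.18 to 0.25, was narrow, whereas that for CXCL2, −0.15 to 1.61, left room for a rise.

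The dosed groups were also compared with each other. Between high and medium dose 6 members were called, against 10.2% of 16467 genes tested, namely the 5 upregulated ELR genes and CXCL12. CXCL8 was 11.3-fold higher in the high dose group (log2 ratio 3.50, SE 0.099, adjusted p = 6.35e-271 by DESeq2), although it differed only 1.9-fold between medium dose and vehicle. CXCL1 was 10.9-fold higher, CXCL3 8.73-fold, CXCL2 7.16-fold and CXCL5 3.53-fold. CXCL12 was 3.05-fold lower in the high dose group. CCL2 did not pass here, at −0.29 (SE 0.127, adjusted p = 0.0522 by DESeq2), with a 95% interval of −0.54 to −0.04.

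Between medium and low dose 4 members were called, against 1.94% of 14082 genes tested. CXCL3 was 5.59-fold higher at the medium dose, CXCL2 3.11-fold and CXCL8 2.25-fold, and CXCL12 was 1.6-fold lower. CCL2 was at −0.31 (SE 0.123, adjusted p = 0.0632 by DESeq2). CXCL2 and CXCL3 received no adjusted p in this comparison without low dose replicate 1, which left 2 members called. Here too the filter mean of 18.3 normalised counts took in the high dose libraries. Between high and low dose 7 members were called, against 16.8% of 18856 genes tested, and CCL2 was among them at −0.60 (SE 0.125, adjusted p = 7.28e-06 by DESeq2). CCL2 was 1.51-fold lower here, close to the fold limit. Without low dose replicate 1, or without high dose replicate 2, 6 members were called. For a difference of any kind among the 4 groups, the likelihood ratio test of DESeq2 passed for these same 7 members, against 45.8% of genes. The DESeq2 adjusted p of that test was 4.28e-123 for CXCL3, 2.01e-76 for CXCL12 and 6.97e-24 for CCL2, and 0.467 for CCL20.

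Summed over CXCL1, CXCL2, CXCL3, CXCL5, CXCL6 and CXCL8, the ELR genes held 118, 145 and 138 normalised counts in vehicle, 123, 95.9 and 143 in low dose libraries, 250, 327 and 272 in medium dose libraries, and 2781, 2933 and 2646 in high dose libraries. CCL2 and CXCL12 together had group means of 845 ± 36.9, 687 ± 72.1, 487 ± 30.5 and 283 ± 11.1 (SD, n = 3), in the same order. The ratio of the first sum to the second ran from 0.142 to 0.176 in vehicle, 0.141 to 0.232 in low dose, 0.483 to 0.672 in medium dose and 9.28 to 10.8 in high dose libraries. The second sum holds only the members called as downregulated and leaves out CCL7 and CCL20. This ratio therefore restates the results of the single genes and is no further test. CXCL8 supplied most of the ELR sum in each library, 72.1% to 77.4% in vehicle and 76.4% to 79.1% at the high dose, and 65.1% to 70.8% at the medium dose.

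The ELR genes share a promoter feature. The members were chosen by name and not by promoter letters, but the motifs were set with earlier results of these data known. The 250 bases before and 50 after each RefSeq start (GRCh38.p14) were searched on both strands for GGAATTTCC, an NF-kB consensus match, and for GGNNNTTCC, which contains it, as well as for the TATA box (TATAAA), the AP-1 motif (TGANTCA), 2 motifs of C/EBP and related factors (TTGCNNAA and, separately, TGATGNAA) and the Sp1 motif (GGGCGG). The table matched 9 of the 10 members. GGAATTTCC occurred in all 6 ELR promoters and in none of CXCL12, CCL7 and CCL20. It occurred in 162 of 35116 promoters of the same length (0.461%). Each site is printed 5′ to 3′ along each gene with 12 bases on either side and the match in capitals.
CXCL1 (chr4:73869303-73869335, plus strand): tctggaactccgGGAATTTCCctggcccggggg
CXCL2 (chr4:74099252-74099284, minus strand): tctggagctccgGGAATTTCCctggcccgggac
CXCL3 (chr4:74038747-74038779, minus strand): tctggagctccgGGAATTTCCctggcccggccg
CXCL5 (chr4:73998747-73998779, minus strand): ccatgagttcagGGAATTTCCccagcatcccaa
CXCL6 (chr4:73836577-73836609, plus strand): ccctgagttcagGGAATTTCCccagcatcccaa
CXCL8 (chr4:73740466-73740498, plus strand): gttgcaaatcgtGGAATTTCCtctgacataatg
The first base of the match lay 77 or 78 bases before the start in CXCL1, CXCL2 and CXCL3, and 89 to 91 bases before it in CXCL5, CXCL6 and CXCL8. The flanks of CXCL1, CXCL2 and CXCL3 are nearly alike, as are those of CXCL5 and CXCL6, so these are copies and not independent sites. CXCL6 had the match and yet 0 to 2 reads in every library. A match is a description of letters and not of binding.

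The looser form GGNNNTTCC was present in 20.1% of all promoters. It occurred a further time 53 bases before the start in CXCL1, CXCL2 and CXCL3, and in CCL20 on the reverse strand 79 bases before it. TATAAA, found in 11.5% of promoters, lay 31 bases before the start in CXCL8, 30 in CCL7 and 29 in CCL20. TGANTCA, found in 7.71%, lay 137 bases before the start in CXCL8 and 51 in CCL7. TTGCNNAA, found in 10.5%, occurred only in CXCL2 among these genes, and TGATGNAA, found in 3.62%, in none. GGGCGG, found in 45%, occurred in CXCL1, CXCL3 and CXCL6 and 3 times in CXCL12.

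The 250 bases before the start of the gene with the highest level at the high dose, CXCL8, and of the most strongly downregulated member, CXCL12, are printed here from GRCh38.p14, with matches to the TATA box, GGAATTTCC, the AP-1 motif and the Sp1 motif on either strand in capitals. In CXCL8 the capitals mark the AP-1 motif, GGAATTTCC and the TATA box in that order, and in CXCL12 they mark 3 reverse-strand matches to the Sp1 motif, of which the last pair overlap by 1 base.
CXCL8 (chr4:73740319-73740568, plus strand): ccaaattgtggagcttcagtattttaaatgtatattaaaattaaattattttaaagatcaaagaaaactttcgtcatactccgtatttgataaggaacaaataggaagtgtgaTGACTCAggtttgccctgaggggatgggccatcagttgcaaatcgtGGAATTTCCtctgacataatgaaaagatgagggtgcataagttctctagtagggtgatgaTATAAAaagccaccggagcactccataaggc
CXCL12 (chr10:44385098-44385347, minus strand): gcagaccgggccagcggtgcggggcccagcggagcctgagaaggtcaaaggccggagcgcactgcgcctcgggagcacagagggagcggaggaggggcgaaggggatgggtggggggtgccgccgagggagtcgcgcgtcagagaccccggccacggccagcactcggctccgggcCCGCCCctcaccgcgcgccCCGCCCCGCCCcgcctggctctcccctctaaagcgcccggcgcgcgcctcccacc

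**Figure D3:**
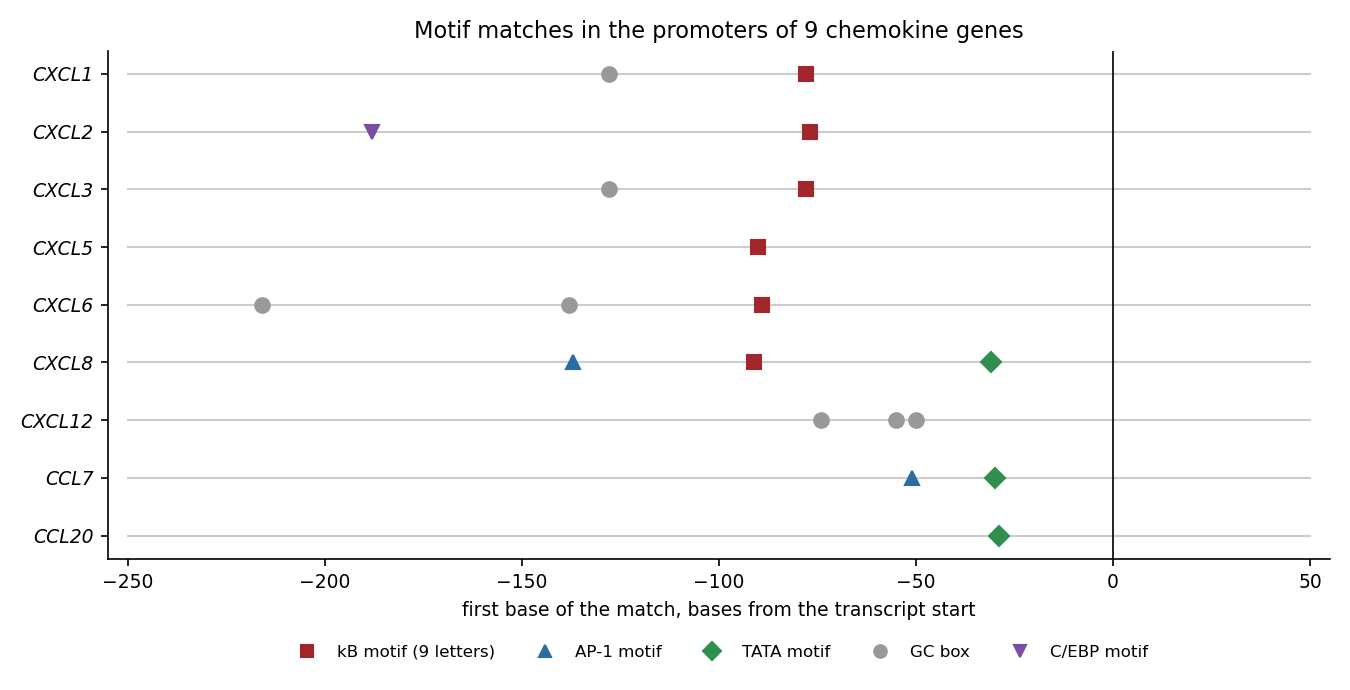
Positions of motif matches in the promoters of 9 chemokine genes, as distance in bases from the RefSeq start, with a mark for the first base of each match to the NF-kB (GGAATTTCC), AP-1, TATA, Sp1 (GC box) and C/EBP motifs. Matches to the looser GGNNNTTCC alone are not drawn. GGAATTTCC sits at a similar distance, 77 to 91 bases before the start, in all 6 ELR genes and is absent from CXCL12, CCL7 and CCL20.

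The ELR genes lie among other genes on chromosome 4, of which 1 was called. CXCL8 (chr4:73740519-73743716, plus strand) lies at one end of the cluster and CXCL2 (chr4:74097040-74099196, minus strand) at the other in GRCh38. The platelet chemokine genes PF4V1, PF4 and PPBP lie between them and had at most 1 read in any library. Of 9 neighbours that are not members, 5 received an adjusted p at the high dose and 1 was called, against 18.2% of all genes tested. That 1 was EREG, which encodes the growth factor epiregulin. EREG rose from 43.6 to 86.4 normalised counts (log2 ratio 0.99, SE 0.24, adjusted p = 0.000134 by DESeq2). MTHFD2L, which lies next to CXCL2, had 179 in vehicle and 218 at the high dose (log2 ratio 0.29, adjusted p = 0.0783 by DESeq2). On chromosome 17, CCL11, CCL8, CCL13 and CCL1, which follow CCL2 and CCL7, had 0 reads in every library.

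**Figure D4:**
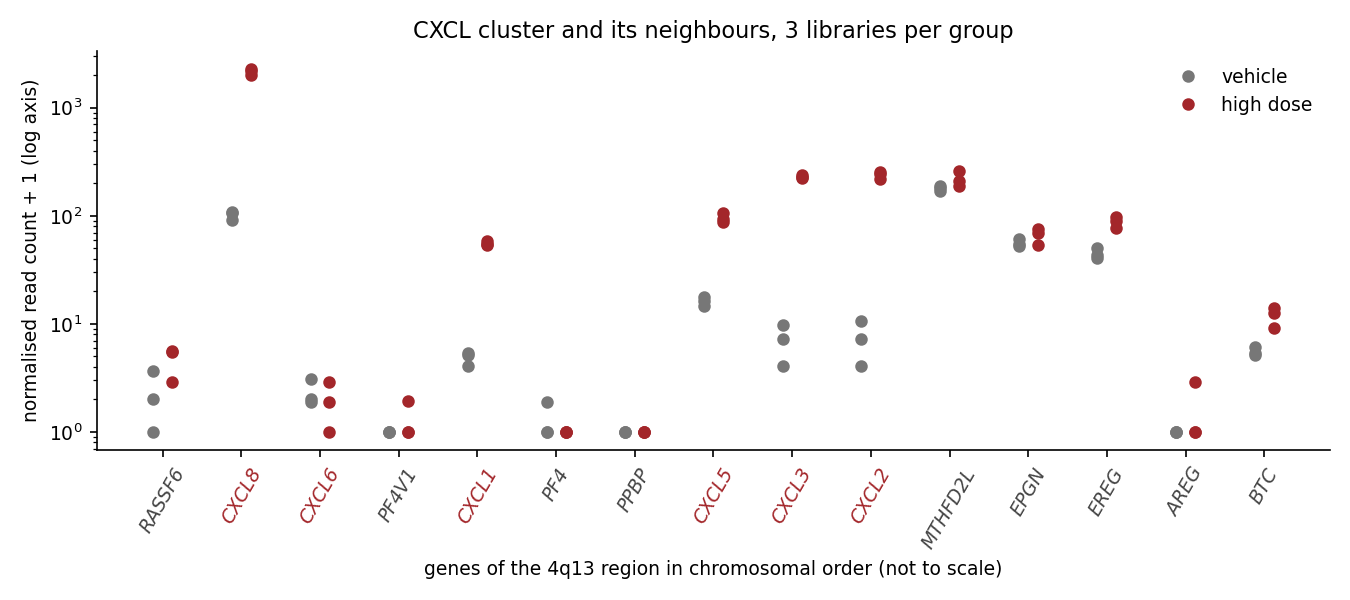
Normalised counts plus 1 on a log axis for the genes of the CXCL cluster on chromosome 4 and its neighbours, in their order along the chromosome and not to scale, with 1 point for each vehicle and high dose library. CXCL8, CXCL1, CXCL5, CXCL3 and CXCL2 are raised at the high dose, while MTHFD2L (179 and 218) stays close to its vehicle level.

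Other chemokine ligands were mostly silent. Of 34 further ligand genes 18 had 0 reads in every library and 4 had a mean of at least 10 normalised counts. CXCL16 was the highest of them, with 494 in vehicle and 442 at the high dose, and was not called (log2 ratio −0.16, adjusted p = 0.0984 by DESeq2). An adjusted p at the high dose was received by 5 of the ligand genes. CCL5, an attractant of T cells and monocytes, was the 1 called, rising from 23 to 44 normalised counts (log2 ratio 0.95, SE 0.322, adjusted p = 0.00798 by DESeq2), and this call was lost without vehicle replicate 2 or high dose replicate 2. The median log2 ratio of the 5 was −0.05, and 18.2% of all genes tested were called at the high dose.

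The receptors through which the members act were absent or low. CXCR1, CXCR2, CCR2 and CCR6 had 0 reads in all 12 libraries, and CCR1 had 1 to 7. Of 23 receptor genes 11 received an adjusted p at the high dose, and 3 were called, all downregulated. Among all genes tested 18.2% were called and 9.57% downregulated. CXCR4 had normalised counts of 24.6, 21 and 35.4 in vehicle and 3.47, 3.6 and 9.35 at the high dose (log2 ratio −2.27, SE 0.507, adjusted p = 2.67e-05 by DESeq2). ACKR3, the scavenging receptor of CXCL12, had 42, 36.8 and 45.8 in vehicle and 22, 18.9 and 18.7 at the high dose (log2 ratio −1.07, SE 0.336, adjusted p = 0.00418 by DESeq2). Both receptors of CXCL12 were thus lower at the high dose, as was CXCL12. At the medium dose, where CXCL12 was also lower, neither receptor was called. CXCR4 had a log2 ratio of −1.05 there (adjusted p = 0.0516 by DESeq2) and ACKR3 of −0.49 (adjusted p = 0.265 by DESeq2). ACKR1, a decoy that binds many inflammatory chemokines, fell from 21.7 to 5.88 (log2 ratio −1.88, SE 0.534, adjusted p = 0.0013 by DESeq2).

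Of 14 cytokine genes known to induce chemokines, 7 received an adjusted p at the high dose and 5 were upregulated, against 8.66% of all genes tested. The median log2 ratio over the 7 was 2.34. IL6 had normalised counts of 82, 85.9 and 69.7 in vehicle and 846, 944 and 871 at the high dose (log2 ratio 3.48, SE 0.15, adjusted p = 7.87e-118 by DESeq2). IL1A, which encodes interleukin 1 alpha, had 9.22, 14 and 11.4 in vehicle and 191, 226 and 224 at the high dose (log2 ratio 4.20, SE 0.31, adjusted p = 1.49e-40 by DESeq2). The high dose libraries did not overlap the vehicle libraries for either gene. CSF2, which encodes GM-CSF, rose from 2.25 to 69.1 (log2 ratio 4.93, SE 0.682, adjusted p = 3.26e-12 by DESeq2). At the medium dose 3 of 5 genes with an adjusted p were upregulated, against 2.34% of all genes tested.

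Of NF-kB subunits and the feedback genes it induces, all 19 received an adjusted p at the high dose. The calls numbered 9, with 8 upregulated and 1 downregulated, and the median log2 ratio was 0.57. The shares over all genes tested at that dose were 18.2% called, 8.66% upregulated and 9.57% downregulated. NFKBIZ, an atypical inhibitor needed for some secondary targets, rose by 1.93 (SE 0.153, adjusted p = 4.75e-35 by DESeq2). RELB rose by 1.70 (SE 0.0802, adjusted p = 4.44e-98 by DESeq2) and BIRC3 by 1.36 (SE 0.103, adjusted p = 1.88e-38 by DESeq2), while BCL3 had a log2 ratio of −1.04 (SE 0.075, adjusted p = 4.93e-42 by DESeq2). At the medium dose RELB was the 1 of 18 called, against 3.81% of all genes tested, with a log2 ratio of 0.63 (SE 0.0846, adjusted p = 3.95e-12 by DESeq2).

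Of 25 upstream receptors, adaptors and kinases 23 received an adjusted p at the high dose and 5 were called, with a median log2 ratio of 0.01. Over all genes tested 18.2% were called, close to the share in this list. IRAK2, a kinase of the interleukin 1 receptor pathway, rose by 1.02 and TAB3 by 0.76. The receptor TLR3 had a log2 ratio of −0.98, the adaptor MYD88 of −0.65 and the interleukin 1 receptor IL1R1 of −0.64. Transcripts of many chemokines carry AU-rich elements that control their decay. Of 14 genes for mRNA decay and stability factors, not all of which bind such elements, 3 were called, again close to the share over all genes. ZFP36L1 rose by 1.30, ZFP36 by 0.81 and ZC3H12C by 0.74, and the median of the 14 was 0.02. Of 16 genes for proteases that trim chemokines and for proteoglycans or enzymes that let them bind at the cell surface, 13 received an adjusted p. Of these 3 were called, also close to the 18.2% over all genes tested. MMP1 rose by 0.79 and MMP14 by 0.60, NDST1 had a log2 ratio of −0.61, and the median of the 13 was −0.22.

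**Figure D5:**
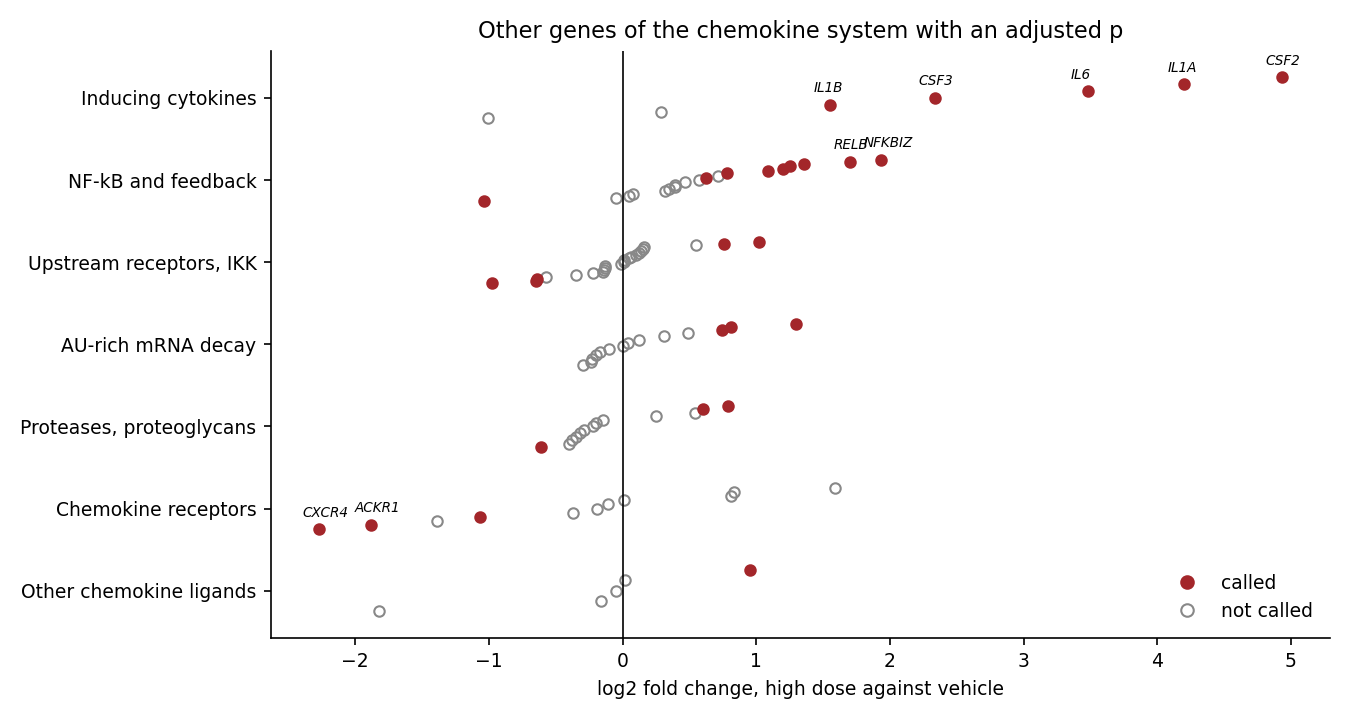
Log2 fold changes at the high dose against vehicle for genes of the lists around the chemokines (other ligands, receptors, cytokines, NF-kB genes, upstream signalling, mRNA decay and protease or proteoglycan genes), 1 point per gene with an adjusted p and filled where the gene was called. The cytokines reach furthest to the right, with CSF2 at 4.93 and IL1A at 4.20, and CXCR4 at −2.27 lies furthest to the left among called genes.

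For each member with a mean of at least 10 normalised counts, the genes with the most similar pattern were sought among 11219 other genes with a mean of at least 100, by Pearson r of log2(normalised count + 1) over the 12 libraries, which share the 4 dose groups. CXCL8 was most like DYRK3 (r = 0.996), KLHL24 (r = 0.995) and PLIN2 (r = 0.994), and 997 genes had an r over 0.95 with it. Among the genes most like CXCL12 were MARCKSL1 (r = 0.997) and PCDH18 (r = 0.996), with 1151 genes over 0.95. CCL2 was most like IGSF1 (r = 0.977), PTPRG (r = 0.968) and AHRR (r = 0.967), with 10 genes over 0.95. The nearest gene was GPBP1 for CXCL1 (r = 0.996), DIRAS1 for CXCL2 (r = 0.993), TATDN3 for CXCL3 (r = 0.990) and TOM1 for CXCL5 (r = 0.992). CXCL1 met the mean of at least 10 only through the high dose group. Its means were 3.87, 3.71 and 4.99 in vehicle, low and medium dose, and 54.5 at the high dose. Its r therefore restates the step at that dose, and 523 genes had an r over 0.95 with it. GPBP1 had 1532 normalised counts in vehicle and 1923 at the high dose. The profile of CCL2, which was already lower at the low dose, thus had far fewer close companions than that of CXCL8 or CXCL12.

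Total counts per library lay between 18863863 and 24200576. Of 11 astrocyte markers 6 had a mean of at least 10 normalised counts. AQP4 was at 0, GFAP had 0 to 6 reads and S100B 0 to 5, while VIM and CD44 were abundant. At the high dose 2 astrocyte markers were called, both lower, SLC1A3 (690 to 126 normalised counts) and NES (214 to 64.7). Among all genes tested 18.2% were called at that dose. The summed astrocyte markers ranged from 149381 to 156875 in vehicle and from 156063 to 157735 at the high dose, most of it VIM and CD44. Of 13 leukocyte markers 4 had a mean of at least 10 normalised counts. TYROBP and CD3E were among those at 0, CD14 had 2 to 7 reads and ITGAM 0 to 3. At the high dose 3 were called, all lower: PTPRC (275 to 84.8 normalised counts), CSF1R (68 to 30.9) and S100A9 (26.5 to 9.26). The sum of all 13, most of it CD68, ranged from 3179 to 3354 in vehicle and from 3960 to 4238 at the high dose. The 6 endothelial markers summed to 606 to 628 in vehicle and to 627 to 698 at the high dose. The 6 epithelial markers summed to 4924 to 5120 in vehicle and to 1900 to 1960 at the high dose, with 1 upregulated and 2 downregulated. The 8 fibroblast markers, which SW1783 cells express strongly, summed to 124020 to 128542 in vehicle, most of it COL1A1 and COL1A2. Their sum was 113036 to 122012 at the low, 89708 to 97033 at the medium and 34476 to 36827 at the high dose. In the same order of 4 groups CXCL12 had means of 366, 375, 234 and 76.5, and CCL2 of 478, 312, 253 and 207. At the high dose 7 of 8 fibroblast markers were downregulated, against 9.57% of all genes tested, and none of the 8 was at 0. Their part in the chemokine results was not tested.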

How the data were processed

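Strand-specific mRNA libraries of SW1783 cells were sequenced as paired ends. According to the submitters' processing notes, the authors checked reads with FastQC 0.11.9, trimmed them with Trim Galore 0.6.5, aligned them to GRCh38 with STAR 2.7.3a and counted genes with RSEM 1.3.3. The study's methods name other versions of Trim Galore and STAR. The deposited values are expected counts per gene, which divide reads that match several genes among those genes, so copies such as CXCL1, CXCL2 and CXCL3 could share reads. Of the values 8.75% were not whole, and all were rounded here. Poly(A) selection and the strand setting of RSEM are not stated.

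Symbols and coordinates came from GENCODE v44 on GRCh38, newer than the annotation used for counting, which held 93.2% of the gene IDs and 99.9% of the counts. Columns were matched to samples through codes in the sample descriptions, with 0 columns left over.

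All 12 libraries were fitted together with group as the sole term in DESeq2 1.42.0 (R 4.3.3), using two-sided Wald tests, Benjamini-Hochberg adjustment over all genes tested and independent filtering at a level of 0.05. DEGs needed an adjusted p under 0.05 and a fold change over 1.5. Against vehicle, the filter left out genes under a mean over all 12 libraries of 1.72 (high), 18.3 (medium) and 263 (low) normalised counts. Alternatives were edgeR 4.0.16, other scalings, filters and thresholds, a replicate block, fits of only the groups compared, summed copies and leaving out each library. Total counts set the precision: for genes with a mean of at least 100, the median SE of the high dose log2 ratios was 0.0699. Same-numbered libraries of the low and medium dose deviated together (r = 0.158, 0.124 and 0.193 for numbers 1, 2 and 3), so the numbers may pair those groups. The labels give no source for such a pairing. Between medium and high dose the r was also positive but mostly smaller, at 0.0551, 0.0355 and 0.221. Between low and high dose it was −0.0191, 0.058 and 0.135, and between vehicle and each dosed group it was negative for every number. The main fit did not use the numbers. Only the replicate block used them, for all 4 groups. Limits from 0 counts cover counting error only.

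The members were chosen by name, and the members, gene lists, markers and motifs were set with earlier results of these data known. All members are described, and from each list the called genes with the 3 largest rises and 3 largest falls at the high dose among genes with a mean of at least 10, with the members' receptors. CCL2 had no entry in the promoter table. A marker and a gene of similar pattern are not reported here.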

Additional observations from a re-analysis of the deposited data

How the results depend on the processing

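At the high dose 7 members were called under every alternative tried, the omission of each library included, except edgeR, which called 8 with CCL7 added. Between high and medium dose 6 were called under all of them. At the medium dose the count was 2 with the Wald test against the fold threshold, 4 with only those groups fitted, 6 with edgeR, which added CXCL5, and 4 to 5 when single libraries were left out. At the low dose the single call of CCL2 was lost (0 members) with total count scaling, with a filtering level of 0.1 and with the Wald test against the fold threshold, and 0 to 1 members were called when libraries were left out. In 7 of the 12 fits without a library CCL2 received no adjusted p. Without independent filtering, an alternative chosen after seeing the data, CCL2 lost its call only without vehicle replicate 3 (−0.56, DESeq2 adjusted p = 0.01) and without low dose replicate 3 (−0.51, DESeq2 adjusted p = 0.016), where the fold fell under 1.5. Between medium and low dose 2 members were called with the Wald test against the fold threshold, 2 with only those groups fitted, and 2 to 4 when libraries were left out. CXCL2 and CXCL3 received no adjusted p without low dose replicate 1 or with only those groups fitted. edgeR called 5. Between high and low dose 6 were called with the Wald test against the fold threshold, and 6 to 7 when libraries were left out.

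At the high dose, the Wald test against the fold threshold called 0 other ligands, 1 receptor, 2 upstream genes, 1 decay gene, 1 protease or proteoglycan gene and 0 neighbours of the CXCL cluster. With no fold threshold 15 NF-kB genes, 11 upstream genes, 11 decay genes and 10 protease or proteoglycan genes were called. The share of all genes called under either of these rules was not counted, so these counts have no background beside them. edgeR called 2 neighbours. When libraries were left out, 0 to 1 other ligands were called.

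Small low dose log2 fold changes changed sign. When single libraries were left out, CXCL1 ranged from −0.39 to 0.22, CXCL3 from −0.77 to 0.02, CXCL5 from −0.24 to 0.16 and CXCL12 from −0.01 to 0.07. The sign also turned for CXCL1 and CXCL3 with copies summed (0.21), and for CXCL5 with copies summed (−0.03) and with total count scaling (−0.01), where CXCL12 was at 0.00. None of these had an adjusted p. At the medium dose CXCL3 had no adjusted p with only 2 groups fitted.

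Deviations of same-numbered libraries had an r from −0.118 to 0.221 over 18 pairs, of which 5 were over 0.1, the 3 of low and medium dose among them. Of 36 pairs with different numbers 0 were over 0.1, and 0 of the 12 libraries were closest to their own number in each other group. With a replicate block, 7, 5 and 1 members were called at the high, medium and low dose and 4 between medium and low dose, and no member's call changed in these 4 comparisons. Depth limits CXCL6, CCL7 and CCL20, which had at most 7 reads in any library, and of these only CCL7 was called, at the high dose by edgeR.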
